A study of Mus musculus with 17 samples.

Results

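The genes described here are 9 Toll-like receptor genes (Tlr1, Tlr2, Tlr3, Tlr4, Tlr6, Tlr7, Tlr8, Tlr9 and Tlr13) and Myd88, the adaptor that most of these receptors signal through. They were listed by name, each was measured by 1 probe set that carried only its symbol, and together they are 10 of the 19751 genes measured. Lung RNA of 17 Balb/c mice was read on Affymetrix Mouse Gene 1.0 ST arrays, with 1 array per mouse, in a study of the neogenin, RGMb and BMP hub in allergic airways. Saline mice (6) were sensitized and challenged with saline, and the labels name no antibody for them. Isotype mice (5) received ovalbumin (OVA) for sensitization and challenge together with an isotype control antibody, and anti-RGMb mice (6) received OVA and a monoclonal antibody (mAb) against RGMb. RGMb is a co-receptor for bone morphogenetic proteins. No labelled group received the anti-RGMb mAb without OVA, and in isotype mice the effects of OVA and of the control antibody cannot be told apart. The mice came from 2 experiments, with 3 mice per group in experiment 1, where they are called 1, 2 and 3, and with 3 saline, 2 isotype and 3 anti-RGMb mice in experiment 2, where they are called 1-2, 2-2 and 3-2. All lungs were taken at the same time point, and the labels used give neither age nor sex.

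Toll-like receptors are membrane proteins that recognise conserved parts of microbes and some products of damaged tissue. Those of the cell surface (Tlr1, Tlr2, Tlr4, Tlr6) bind lipoproteins and lipopolysaccharide, and those of endosomes (Tlr3, Tlr7, Tlr8, Tlr9, Tlr13) bind nucleic acids. Ligand binding brings adaptor proteins to the receptor, Myd88 for all of them except Tlr3, which uses Ticam1 (TRIF), and the signal ends in NF-kB and interferon regulatory factors. In the lung these receptors are found on macrophages, dendritic cells and other leukocytes and, for several of them, on epithelium, and Tlr4 on airway epithelium is known for its part in sensitization to inhaled allergen.

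The promoters of 5 members whose levels differed between groups are shown because 4 of them, those of Tlr1, Tlr8, Tlr9 and Tlr13, hold the core motif of PU.1, a transcription factor of myeloid and B cells, and that of Tlr3 because this member was lower in isotype mice. The sequences are RefSeq's (build GRCm38.p6), with the 250 bases before the annotated start, written 5′ to 3′ on the gene's strand, with capitals marking motif matches. RefSeq windows were matched for 8 of the 10 members, and those of Tlr4 and Tlr7 are not given. Tlr1 has 2 annotated starts, of which the more distal is shown.
Tlr1: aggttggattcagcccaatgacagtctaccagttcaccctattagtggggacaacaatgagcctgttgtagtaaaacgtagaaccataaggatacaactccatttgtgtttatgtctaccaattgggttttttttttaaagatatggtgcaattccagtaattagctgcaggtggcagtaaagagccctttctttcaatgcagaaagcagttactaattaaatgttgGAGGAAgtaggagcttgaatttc
Tlr8: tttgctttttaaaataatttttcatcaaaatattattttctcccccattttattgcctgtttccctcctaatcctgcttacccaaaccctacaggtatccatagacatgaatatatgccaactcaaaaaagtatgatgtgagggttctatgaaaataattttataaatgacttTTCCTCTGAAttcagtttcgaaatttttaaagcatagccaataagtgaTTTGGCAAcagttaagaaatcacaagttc
Tlr9: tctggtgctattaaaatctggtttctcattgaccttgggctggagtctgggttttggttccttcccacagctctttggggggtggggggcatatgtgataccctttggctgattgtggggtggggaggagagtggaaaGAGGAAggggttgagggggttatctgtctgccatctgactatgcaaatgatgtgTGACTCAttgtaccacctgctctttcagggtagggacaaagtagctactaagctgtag
Tlr13: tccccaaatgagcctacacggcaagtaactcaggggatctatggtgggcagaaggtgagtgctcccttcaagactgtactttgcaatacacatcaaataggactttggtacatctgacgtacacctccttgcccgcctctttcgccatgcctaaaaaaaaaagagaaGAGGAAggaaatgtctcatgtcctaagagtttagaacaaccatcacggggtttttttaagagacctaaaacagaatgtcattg
Tlr3: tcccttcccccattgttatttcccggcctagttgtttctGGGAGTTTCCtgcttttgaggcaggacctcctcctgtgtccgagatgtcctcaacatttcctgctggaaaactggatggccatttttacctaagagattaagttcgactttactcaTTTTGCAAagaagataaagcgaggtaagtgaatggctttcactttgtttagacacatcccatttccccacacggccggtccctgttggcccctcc
These windows lie at chr5:64933559-64933808 (minus strand, Tlr1), chrX:167264330-167264579 (minus strand, Tlr8), chr9:106222348-106222597 (plus strand, Tlr9), chrX:106143025-106143274 (plus strand, Tlr13) and chr8:45410381-45410630 (minus strand, Tlr3). The PU.1 core was searched as GAGGAA on both strands in windows of 300 bases (the 250 shown and the 50 after the start). Of all 32851 such windows 28.3% held this core, as did 4 of the 10 windows matched for members. In the bases shown, its nearest base lay 18 bases before the start of Tlr1, 72 before that of Tlr8, 107 before that of Tlr9 and 78 before that of Tlr13. Tlr9 holds a further match just after its start, and the window of the other Tlr1 start holds none. The other capitals mark an AP-1 motif (TGANTCA, in 7.81% of windows) in Tlr9, a C/EBP motif (TTGCNNAA, 10.8%) in Tlr8 and Tlr3, a STAT motif (the palindromic consensus, 6.95%) in Tlr8 that overlaps its PU.1 match, and an NF-kB consensus (8.46%) in Tlr3. The interferon-stimulated response element (3.44%) was matched in the windows of Tlr6 and Myd88. The letters GAGGAA are not in the windows of Tlr2, Tlr3, Tlr6 and Myd88. A match describes the letters of a window only, and binding was not measured. On the chromosome Tlr1 is the neighbour of Tlr6, and Tlr8 that of Tlr7, in the RefSeq annotation of the same build.

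The values are probe set intensities, and the level of the arrays differed between the experiments, with array medians between 128 and 135 in experiment 1 and between 387 and 423 in experiment 2. Intensities are therefore compared within an experiment only, and are given in the order of the mouse numbers, and differences below are log2 differences from a limma model with a term for the experiment, given ± standard error (SE). A gene was called where its Benjamini-Hochberg adjusted p over all 19751 genes was under 0.05. Arrays of an experiment correlated at 0.968 or more across genes. The lung identity of the samples was checked by epithelial markers. Of 7 such genes, 6, among them the surfactant gene Sftpc, lay above the 99th percentile of genes on every array, and the ciliated cell gene Foxj1 at or above percentile 52.6. The labels do not say whether mice shared a cage or litter, and p-values weigh a difference against the spread between these mice.

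Lungs of isotype mice had more RNA of most Toll-like receptors than lungs of saline mice, and the anti-RGMb mAb was accompanied by lower levels of 6 of them. Against saline, 7 of the 10 members were higher in isotype mice (Tlr1, Tlr4, Tlr6, Tlr7, Tlr8, Tlr9 and Tlr13), where 14.6% of all genes were called higher, and 1 was lower (Tlr3), where 21.0% of all genes were. The median difference of the 10 was 0.82, beside -0.04 for all genes. Against isotype mice, 6 members were lower in anti-RGMb mice (Tlr1, Tlr4, Tlr6, Tlr8, Tlr9 and Tlr13; 10.0% of all genes were called lower). None was higher by limma (11.1% of all genes were), and 1 was at an unadjusted p under 0.05 (17.1% of all genes). The median was -0.43, beside 0.03 for all genes. Anti-RGMb mice still stood above saline mice for 5 members (Tlr1, Tlr7, Tlr8, Tlr9 and Tlr13; 4.26% of all genes). None was lower by limma (2.24% of all genes were), with 0 at an unadjusted p under 0.05 (11.2% of all genes), and the median was 0.38, beside -0.01. The isotype mice enter the first and the second of these comparisons, and each group enters 2 of the 3, so the comparisons are not independent. In bulk lung RNA, more or fewer cells that carry a transcript cannot be told apart from more or less of it per cell.

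**Figure D1:**
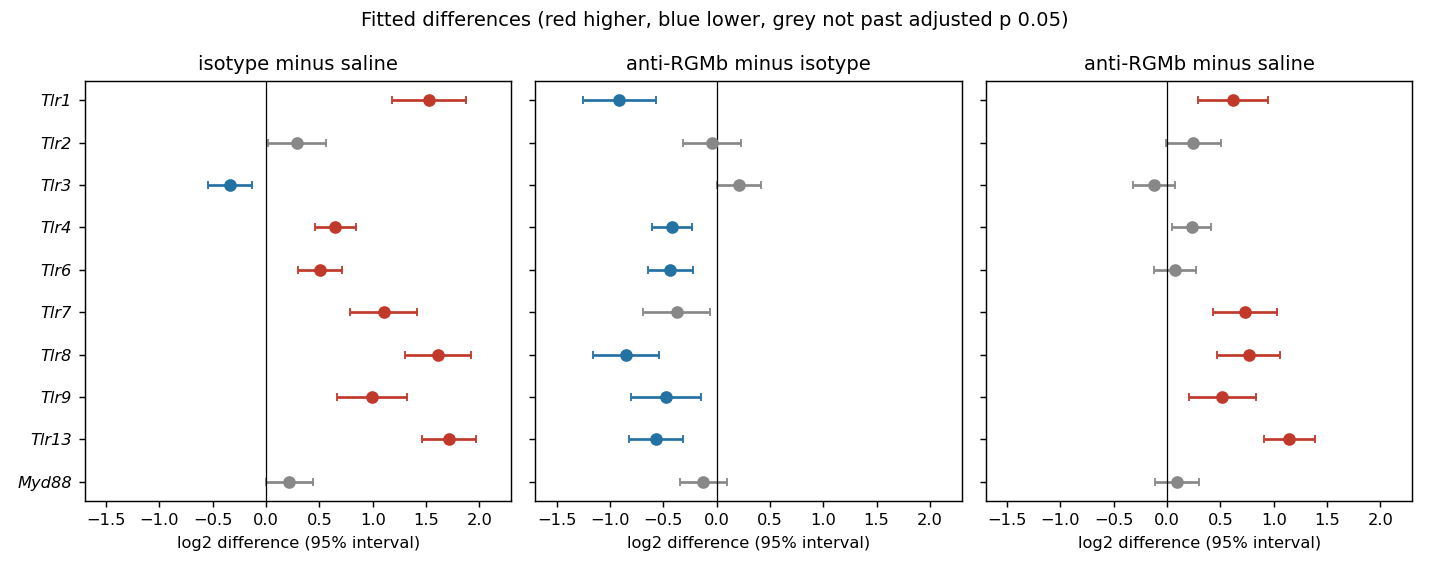
Log2 differences of the 10 members in the 3 comparisons (horizontal axis), with 95% intervals from limma that are not adjusted for the number of genes. Red marks higher, blue lower and grey not past an adjusted p of 0.05; the values run from -0.34 (Tlr3) to 1.72 (Tlr13) for isotype minus saline, and from -0.91 (Tlr1) to 0.21 (Tlr3) for anti-RGMb minus isotype.

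Among the surface receptors, Tlr1, which pairs with Tlr2 to bind triacylated lipoproteins, had the largest differences. Tlr1 intensities in experiment 1 were 83.4, 66.0 and 66.3 in saline mice, 161, 204 and 151 in isotype mice, and 150.3, 110.0 and 108 in anti-RGMb mice. Those of experiment 2 were 372, 252 and 346 in saline mice, 1252 and 1151 in isotype mice, and 476, 478 and 374 in anti-RGMb mice. The groups did not overlap in either experiment, though in experiment 1 anti-RGMb mouse 1 (150.3) was barely below the lowest isotype mouse (151), and in experiment 2 anti-RGMb mouse 3-2 (374) was barely above saline mouse 1-2 (372). The difference was 1.53 ± 0.16 between isotype and saline mice (2.88-fold, limma adjusted p = 1.0e-06) and -0.91 ± 0.16 between anti-RGMb and isotype mice (1.88-fold lower, adjusted p = 0.00066). Anti-RGMb mice stayed above saline mice by 0.62 ± 0.16 (adjusted p = 0.0226 in limma), but this call was lost without saline mouse 2-2 (0.53, adjusted p = 0.0655) or anti-RGMb mouse 1 (0.51, 0.0542), 2 (0.60, 0.0529) or 3 (0.61, 0.0501).

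Tlr6, the neighbour and close relative of Tlr1, pairs with Tlr2 for diacylated lipoproteins. Because both genes are alike in sequence, probes could be shared between their transcripts, and the sources used here do not give the probes. Tlr6 in experiment 1 stood at 112, 101 and 94.4 in saline mice, 127, 138 and 120.2 in isotype mice, and 117, 92.5 and 112 in anti-RGMb mice. Its values in experiment 2 were 393, 318 and 362 in saline mice, 562 and 636 in isotype mice, and 415, 409 and 322 in anti-RGMb mice. Isotype mice were above both other groups in each experiment, while saline and anti-RGMb mice overlapped in each. Tlr6 was higher in isotype than in saline mice by 0.51 ± 0.10 (adjusted p = 0.00047 in limma) and lower with the antibody by 0.43 (-0.43 ± 0.10, adjusted p = 0.0039). Between anti-RGMb and saline mice it was at 0.07 ± 0.09 (adjusted p = 0.763), with a 95% interval (as for all intervals here, not adjusted for the number of genes) from -0.12 to 0.27.

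Tlr2, the partner that both of these receptors need, was called in no comparison. Its intensities ran from 217 to 309 in saline mice, 270.4 to 384 in isotype mice and 259 to 456 in anti-RGMb mice of experiment 1, and from 635 to 759, 790.0 to 909 and 707 to 825 in experiment 2, so all groups overlapped in experiment 1, and anti-RGMb mice overlapped both other groups in experiment 2. The differences were 0.29 ± 0.13 for isotype minus saline (limma adjusted p = 0.0957, interval 0.02 to 0.56), -0.04 ± 0.13 for anti-RGMb minus isotype (0.848, -0.32 to 0.23) and 0.24 ± 0.12 for anti-RGMb minus saline (0.296, -0.01 to 0.50). Leaving out anti-RGMb mouse 1 (0.30, adjusted p = 0.0294) brought the isotype rise past the threshold, as did leaving out isotype mouse 1 (0.36, with an adjusted p of 0.0417).

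Tlr4, the lipopolysaccharide receptor, was higher in isotype mice and lower with the antibody. Tlr4 intensities in experiment 1 were 257, 272 and 273 in saline mice, 432, 412 and 395 in isotype mice, and 336, 312 and 384 in anti-RGMb mice. For Tlr4 in experiment 2 they were 757, 747 and 773 in saline mice, 1078 and 1413 in isotype mice, and 888, 888 and 679 in anti-RGMb mice. In both experiments all anti-RGMb mice were below all isotype mice, and in experiment 2 anti-RGMb mouse 3-2 was also below all saline mice. Tlr4 rose by 0.65 ± 0.09 in isotype mice (1.57-fold, limma adjusted p = 1.6e-05) and was lower with the antibody (-0.42 ± 0.09, adjusted p = 0.0025). Against saline, anti-RGMb mice were at 0.23 ± 0.09 (adjusted p = 0.130, interval 0.05 to 0.41), which passed without anti-RGMb mouse 3-2 (0.31, adjusted p = 0.0118).

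**Figure D2:**
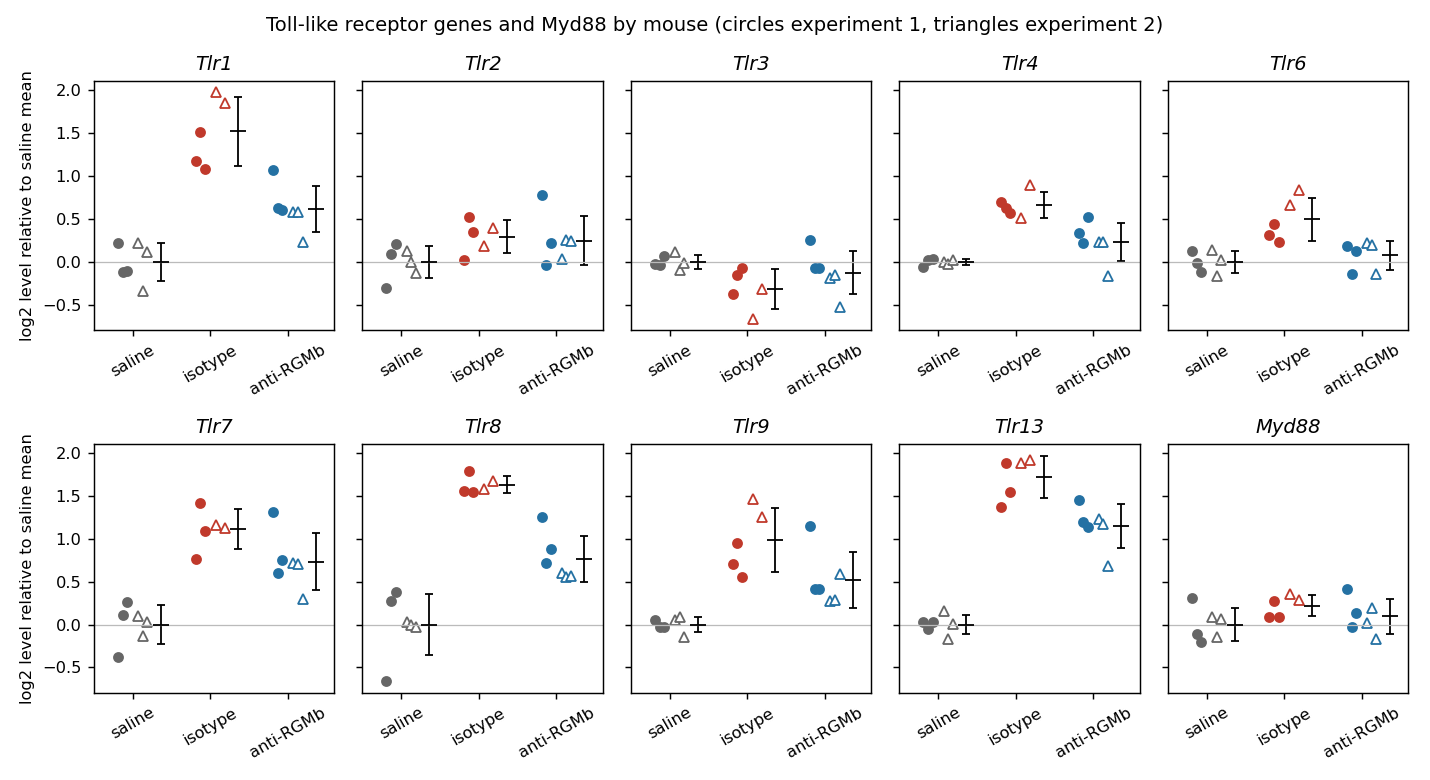
Log2 level of each member in each mouse, minus the saline mean of the same experiment (vertical axis), by group, with circles for experiment 1, triangles for experiment 2 and the mean ± SD of each group beside its points. Isotype mice lie above saline mice without overlap for Tlr1, Tlr4, Tlr6, Tlr7, Tlr8, Tlr9 and Tlr13 within each experiment, and Tlr3 lies the other way.

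The endosomal receptors held the rises of Tlr13 and Tlr8 and the fall of Tlr3. Tlr13, a receptor of mice for bacterial ribosomal RNA that humans lack, had the smallest p of the members in both comparisons with saline mice. Tlr13 intensities were 128, 120.3 and 127 in saline mice, 322, 459 and 364 in isotype mice, and 342, 286 and 276 in anti-RGMb mice in experiment 1. For Tlr13 in experiment 2 they were 424, 338 and 381 in saline mice, 1398 and 1427 in isotype mice, and 891, 854 and 609 in anti-RGMb mice. Every mouse given OVA was above every saline mouse of its experiment. Isotype and anti-RGMb mice overlapped in experiment 1, where anti-RGMb mouse 1 (342) was above isotype mouse 1 (322), and were apart in experiment 2. The difference was 1.72 ± 0.12 for isotype minus saline (3.28-fold, adjusted p = 5.6e-09 in limma), -0.57 ± 0.12 for anti-RGMb minus isotype (adjusted p = 0.0022) and 1.15 ± 0.11 for anti-RGMb minus saline (2.21-fold, adjusted p = 3.4e-06).

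Tlr8, which senses single-stranded RNA in humans and is also studied in mice as a restraint on Tlr7, had groups in the same order in both experiments without overlap, isotype above anti-RGMb above saline. Tlr8 intensities were 152, 288 and 312 in saline mice, 705, 825 and 699 in isotype mice, and 572, 393 and 440.0 in anti-RGMb mice in experiment 1. For Tlr8 in experiment 2 they were 936, 913 and 898 in saline mice, 2727 and 2908 in isotype mice, and 1394, 1345 and 1356 in anti-RGMb mice. The 3 anti-RGMb mice of experiment 2 lay within a narrow band between the other groups, and saline mouse 1 was the lowest of experiment 1. The isotype rise was 1.61 ± 0.15 (3.06-fold, limma adjusted p = 1.5e-07), the difference of anti-RGMb from isotype mice was -0.85 ± 0.15 (1.80-fold lower, adjusted p = 0.00049), and that of anti-RGMb from saline mice was 0.76 ± 0.14 (adjusted p = 0.0021).

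Tlr7, its neighbour on the X chromosome and a receptor for single-stranded RNA, was higher in both OVA groups than in saline mice but was not called between them. Tlr7 intensities in experiment 1 were 90.4, 127 and 142 in saline mice, 200.5, 314 and 251 in isotype mice, and 293, 178 and 198 in anti-RGMb mice. For Tlr7 in experiment 2 they were 473, 402 and 451 in saline mice, 986 and 957 in isotype mice, and 725, 717 and 539 in anti-RGMb mice. Both OVA groups were above saline mice in each experiment, and they overlapped each other in experiment 1. Isotype mice were higher than saline mice by 1.10 ± 0.15 (adjusted p = 1.2e-05 in limma) and anti-RGMb mice by 0.73 ± 0.14 (adjusted p = 0.0032). Anti-RGMb minus isotype was -0.37 ± 0.15 (adjusted p = 0.0868, interval -0.69 to -0.06), and it passed when anti-RGMb mouse 1 was left out (-0.50, adjusted p = 0.0105), and when isotype mouse 1 was (-0.47, adjusted p of 0.0337).

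Tlr9 recognises unmethylated CpG DNA and in mice is found in plasmacytoid dendritic cells, B cells and myeloid cells. Tlr9 intensities were 135, 127 and 128 in saline mice, 212, 251 and 192 in isotype mice, and 288, 173 and 173 in anti-RGMb mice in experiment 1. For Tlr9 in experiment 2 they were 450.4, 460.0 and 391 in saline mice, 1193 and 1034 in isotype mice, and 524, 528 and 648 in anti-RGMb mice. Anti-RGMb mouse 1 was above all isotype mice of experiment 1, while in experiment 2 both isotype mice were far above the anti-RGMb mice. All saline mice were below all other mice in both. The isotype rise was 0.99 ± 0.16 (1.99-fold, limma adjusted p = 6.5e-05). Anti-RGMb mice were lower than isotype mice by 0.48 (-0.48 ± 0.16, adjusted p = 0.0385) and above saline mice by 0.52 ± 0.15 (adjusted p = 0.0463), and both calls were close to the threshold. The first was lost in 8 of the 17 fits that left out 1 mouse each (adjusted p up to 0.133), when the mouse left out was anti-RGMb 2, 3, 1-2, 2-2 or 3-2 or isotype 2, 1-2 or 2-2. The second was lost in 11 of 17 (adjusted p up to 0.105), when it was any of the 6 saline mice, anti-RGMb 1, 2, 3 or 3-2, or isotype 2.

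Tlr3, the receptor for double-stranded RNA, went the other way. Tlr3 intensities were 390.2, 386 and 416 in saline mice, 305, 357 and 379 in isotype mice, and 475, 377 and 378 in anti-RGMb mice in experiment 1. For Tlr3 in experiment 2 they were 886, 764 and 806 in saline mice, 517 and 656 in isotype mice, and 716, 738 and 569 in anti-RGMb mice. All isotype mice were below all saline mice of their experiment, while anti-RGMb mice overlapped isotype mice in both experiments and saline mice in experiment 1. In experiment 2 all anti-RGMb mice were below all saline mice. Tlr3 fell in isotype mice by 0.34 (-0.34 ± 0.10, limma adjusted p = 0.0111). Anti-RGMb mice were at 0.21 ± 0.10 from isotype mice (adjusted p = 0.144, interval 0.01 to 0.42) and at -0.12 ± 0.09 from saline mice (adjusted p = 0.537, interval -0.32 to 0.07). The difference from isotype mice passed without anti-RGMb mouse 3-2 (0.27, adjusted p = 0.0401).

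Myd88, the adaptor, passed in no comparison. Its intensities ran from 396 to 567 in saline mice, 486 to 553 in isotype mice and 449 to 610.0 in anti-RGMb mice of experiment 1, and from 2355 to 2766, 3167 to 3339 and 2312 to 2975 in experiment 2. Isotype mice were above both other groups in experiment 2 and within their range in experiment 1. The differences were 0.22 ± 0.10 for isotype minus saline (limma adjusted p = 0.119, interval -2.6e-05 to 0.44), -0.12 ± 0.10 for anti-RGMb minus isotype (0.450, -0.34 to 0.09) and 0.09 ± 0.10 for anti-RGMb minus saline (0.700, -0.11 to 0.30). Without saline mouse 1 the isotype rise passed (0.29, adjusted p = 0.0308).

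Counted by mice rather than by a model, 7 of the 10 members (the 7 called higher) had all isotype mice above all saline mice in both experiments, as did 11.7% of all genes. For 4 (Tlr1, Tlr4, Tlr6 and Tlr8; 7.26% of all genes) all anti-RGMb mice were below all isotype mice in both. For 5 (Tlr1, Tlr7, Tlr8, Tlr9 and Tlr13; 4.70% of all genes) all anti-RGMb mice were above all saline mice in both.

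The comparison of both OVA groups was also made within each experiment, in 1 model of all 17 mice that shares its estimate of the spread. In experiment 2, 6 members were called lower with the antibody (11.3% of all genes were), and in experiment 1 limma called 0 (3.13% of all genes), with 5 lower at an unadjusted p under 0.05 (7.51% of all genes) and 7 of 10 below 0. The Tlr1 difference was -0.49 ± 0.17 in experiment 1 and -1.45 ± 0.19 in experiment 2, and that of Tlr9 was -0.08 ± 0.16 and -0.98 ± 0.18. Tlr8 was at -0.68 ± 0.20 and -1.05 ± 0.22, and Tlr13 at -0.33 ± 0.14 and -0.87 ± 0.16. The difference between the experiments was called for 0 of 10 members by limma (smallest adjusted p = 0.125, Tlr1; 0.471% of all genes were called), with 4 at an unadjusted p under 0.05 (Tlr1, Tlr6, Tlr9 and Tlr13), as were 11.3% of all genes. For isotype minus saline, 6 members were called higher in experiment 1 (8.81% of all genes) and 7 in experiment 2 (13.7%). Their difference between experiments was called for 0 by limma (0.668% of all genes), with 3 at an unadjusted p under 0.05 (10.1% of all genes). Anti-RGMb mice were called above saline mice for 5 members in experiment 1 (3.26% of all genes) and for 1, Tlr13, in experiment 2 (2.65%), and here the difference between experiments was called for 0 members and for 0 of all genes by limma, with 0 members at an unadjusted p under 0.05 (3.03% of all genes).

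**Figure D3:**
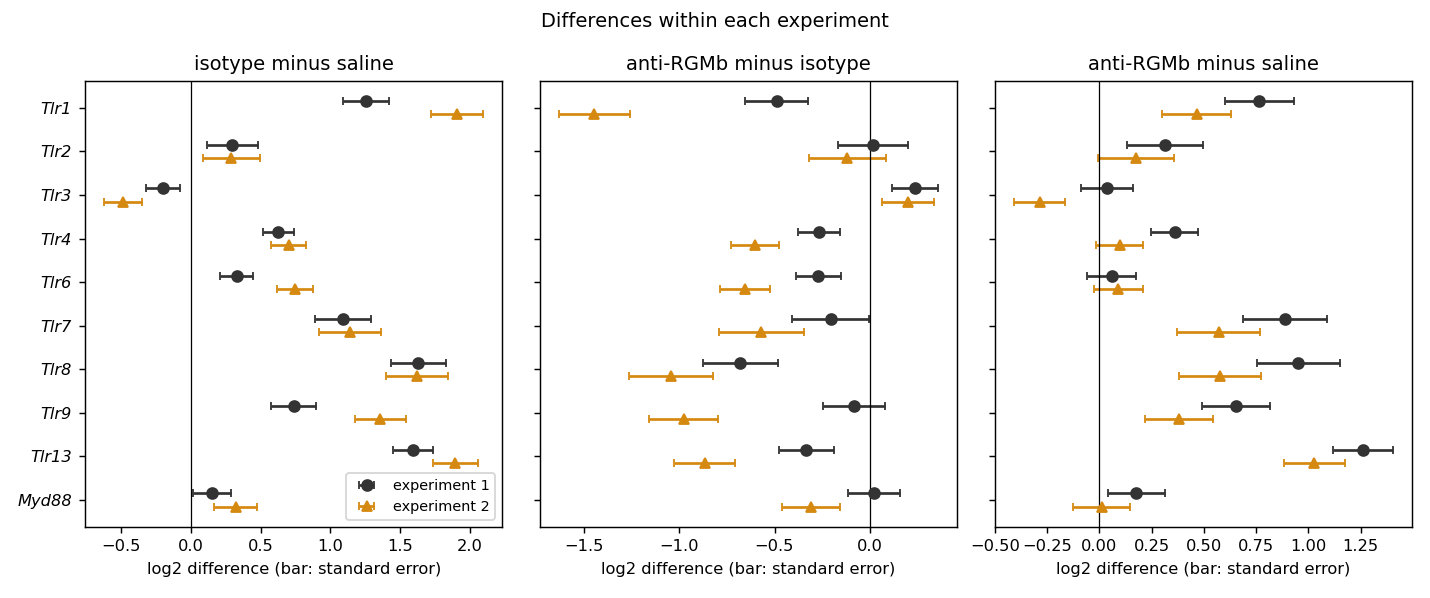
Log2 difference of each member within experiment 1 and within experiment 2 for the 3 comparisons, with bars of 1 SE. For anti-RGMb minus isotype, Tlr1 lies at -0.49 and -1.45 and Tlr9 at -0.08 and -0.98, while Tlr8 lies well below 0 in both experiments.

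Some mice stood apart within their group. Anti-RGMb mouse 1 was the highest of its group for 8 of 10 members (all but Tlr4 and Tlr6), relative to the saline mean of its experiment, and anti-RGMb mouse 3-2 was the lowest for 7. Without anti-RGMb mouse 1, 7 members were called lower with the antibody (Tlr7 in addition), and 3 were called above saline (Tlr7, Tlr8 and Tlr13). Over all genes, that fit called fewer in either direction than the fit of all mice, in both comparisons. The fit of all mice called 4180 genes for anti-RGMb minus isotype and 1284 for anti-RGMb minus saline. Fits without 1 mouse called 3581 to 4466 and 913 to 1540. The summed level of 5 plasmacytoid dendritic cell markers in anti-RGMb mouse 1 was 1.87 times the saline mean, against 0.960 to 1.01 in the other anti-RGMb mice. In isotype mice 2, 1-2 and 2-2 it was 1.27, 1.38 and 1.41, and in isotype mice 1 and 3 it was 0.977 and 0.955. Other marker lists also set anti-RGMb mouse 1 apart. Its T cell sum was 1.66 (0.929 to 1.21 in the other anti-RGMb mice) and its conventional dendritic cell sum 1.69 (1.16 to 1.48). Its eosinophil sum was 1.71 (2.37 to 3.01 in the others) and its neutrophil sum 0.927 (1.53 to 2.21). Its alveolar macrophage sum was 1.23 (0.984 to 1.08), its mast cell and basophil sum 1.03 (1.25 to 1.43) and its endothelial sum 0.842 (0.877 to 0.958). The part of these cells in its receptor levels was not tested.

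The genes around the receptors moved in part with them. Of 80 measured genes of the pathway other than the members (of 89 listed), 47 were called higher and 8 lower in isotype mice (median 0.28). Of all genes, 14.6% were called higher and 21.0% lower there. With the antibody, 30 were lower and 2 higher than in isotype mice (median -0.14; 10.0% and 11.1% of all genes). Against saline mice, 20 were higher and 1 lower (median 0.15; 4.26% and 2.24% of all genes). The same shares of all genes apply to the counts of the pathway and marker lists below. Tlr12, the other measured receptor of the family, was at 0.05, -0.05 and 0.00 in the 3 comparisons in that order and passed in none. The list was written with earlier results of these arrays known.

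Genes for proteins that bring ligands to the receptors, or move and cut the receptors, are described next. Of 10 co-receptors and chaperones, 7 were higher and 1 lower in isotype mice, and 6 were lower and 0 higher with the antibody. Ly86 (MD-1), the partner of the Tlr4 relative Cd180, was at 2.04, then -0.84 against isotype and 1.20 against saline mice. Unc93b1, which brings the endosomal receptors from the endoplasmic reticulum to endosomes, was at 1.01, -0.45 and 0.57, Ly96 (MD-2) of the Tlr4 complex at 1.03, -0.63 and 0.40, and the lipopolysaccharide co-receptor Cd14 at 1.37, -0.55 and 0.83. All 12 of these differences were called. The fatty acid receptor Cd36, which helps Tlr2, was the 1 that was lower in isotype mice (-0.15). All 5 proteases that cut endosomal receptors into their active form were higher in isotype mice and all 5 lower with the antibody. Ctsk was at 2.57 and -1.37, Ctss at 1.63 and -0.77, Lgmn at 1.15 and -0.69 and Ctsb at 1.06 and -0.50, and these enzymes also serve other functions of macrophage lysosomes.

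Signalling genes inside the cell were mixed. Of 5 other adaptors, Ticam2 (TRAM), which links Tlr4 to Ticam1, was higher in isotype mice (1.10) and lower with the antibody (-0.61), and Ticam1 was higher in isotype mice (0.24). Of 13 kinases and ubiquitin ligases, 5 were higher, 1 lower and 7 not past in isotype mice. Btk, a kinase of B and myeloid cells, was at 1.46 and -0.81 and Ikbke at 0.87 and -0.52, while Tab3 was lower in isotype mice (-0.20). Of 8 transcription factors, 5 were higher and 1 lower, and 4 were lower with the antibody, among them Irf5, which acts below Myd88 (1.02 and -0.47). Of 10 negative regulators, 7 were higher and 2 lower in isotype mice and 5 lower with the antibody. Tnip3, an inhibitor of NF-kB signalling, was at 2.93 and -1.40, and Tnfaip3 (A20) at 0.67 and -0.29.

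Of 16 target genes, 11 were higher and 1 lower in isotype mice, and 5 were lower with the antibody. The chemokine gene Ccl3 was at 2.11 and -1.08, Tnf at 0.56 and -0.44 and Il10, which restrains inflammation, at 0.62 and -0.68, all called. Cxcl10, an interferon target, was higher in isotype mice (1.44) and not past with the antibody (-0.63, limma adjusted p = 0.137). Il12a, a subunit of interleukin 12, was the 1 that was lower (-0.39), and it was also lower in anti-RGMb than in saline mice (-0.31). Of 8 endogenous ligands, 3 were higher, 1 lower and 4 not past. The acute phase gene Saa3 was at 4.97, and at -1.39 with the antibody. Of 4 measured receptors of the interleukin 1 family that also use Myd88, Il1rl2 was higher (0.83) and lower with the antibody (-0.60), and Il18r1 was lower (-0.62) and higher with it (0.49).

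**Figure D4:**
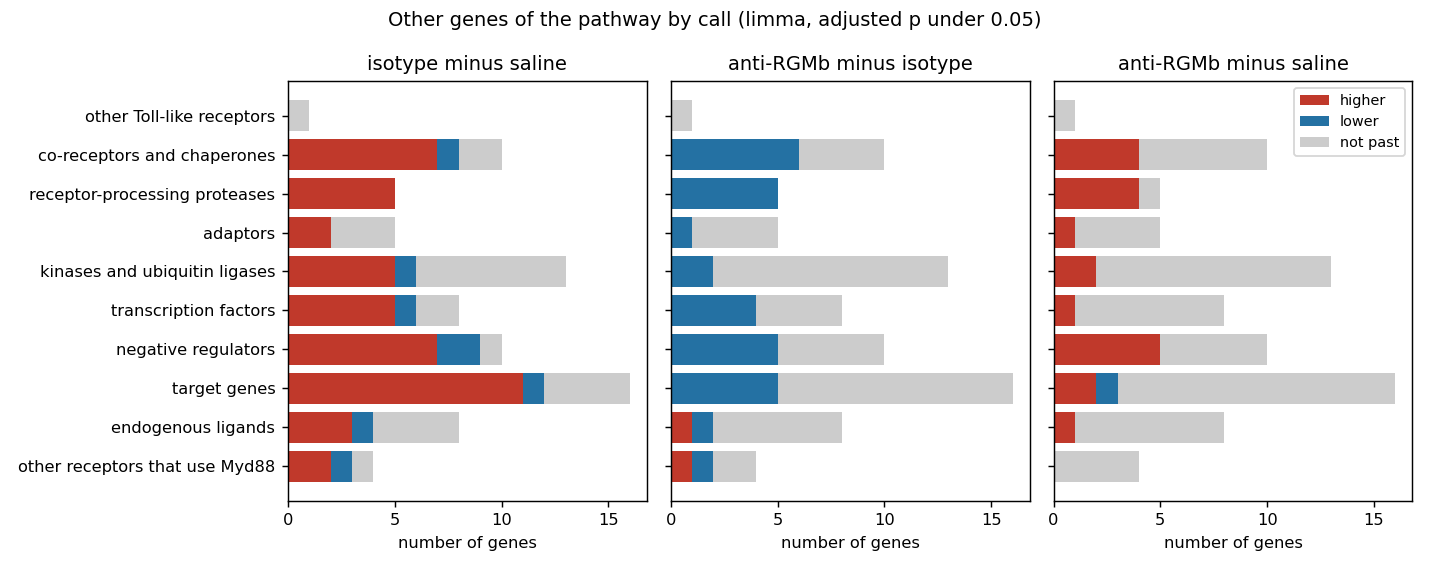
Number of genes called higher, called lower or not past the threshold in each list of the Toll-like receptor pathway, for the 3 comparisons. All 5 proteases are higher in isotype than in saline mice and all 5 lower in anti-RGMb than in isotype mice, while 7 of 13 kinases and ubiquitin ligases are not past in isotype mice.

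Markers of leukocytes that carry these receptors moved in the same comparisons. Of 8 interstitial macrophage and monocyte markers, 7 were higher in isotype mice (median 2.20), 7 lower with the antibody (median -0.85) and 7 higher in anti-RGMb than in saline mice (median 1.40). Their summed level was taken relative to the saline mean of the experiment. It was 0.870 to 1.10 in saline, 3.13 to 4.24 in isotype and 1.94 to 2.34 in anti-RGMb mice. The 3 groups did not overlap, nor did they within each experiment for Tlr1 and Tlr8. Eosinophil sums, given below, also kept the 3 groups apart in this order, and endothelial sums kept them apart in the reverse order. Of 9 conventional dendritic cell markers, 4 were higher and 1 lower, with sums of 0.874 to 1.07, 1.68 to 2.12 and 1.16 to 1.69. With the antibody, 2 of these 9 were lower and 7 not past (median -0.02). By the mean of their log2 levels relative to saline, isotype (0.26 to 0.49) and anti-RGMb mice (0.09 to 0.55) overlapped. Of 6 eosinophil markers, 6 were higher and then 5 lower with the antibody, with sums of 0.886 to 1.10, 3.14 to 5.09 and 1.71 to 3.01, although Epx and Il5ra lay below the lower quartile of genes in all saline mice. Of 8 neutrophil markers, 5 were higher and then 3 lower, with sums of 0.801 to 1.35, 2.18 to 2.71 and 0.927 to 2.21.

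Lymphocytes and resident cells of the lung were looked at in the same way. Of 7 B cell markers, 5 were higher and then 5 lower. Their sums were 0.923 to 1.13 in saline, 1.16 to 1.77 in isotype and 0.937 to 1.16 in anti-RGMb mice. Isotype mice 1-2 (1.77) and 2-2 (1.45) had the highest sums. Both are the isotype mice of experiment 2, and they also had the highest mast cell and basophil sums (1.87 and 2.35). Relative to saline, these mice were also the highest for Tlr1, Tlr6, Tlr9 and Tlr13, but not both for any other member. For Tlr13 the margin was small (1.881 and 1.911, against 1.877 in isotype mouse 2). The next highest for Tlr9, anti-RGMb mouse 1 (1.14 above saline), had a B cell sum of 0.991. Of 8 alveolar macrophage markers, 3 were higher and 2 lower, with sums of 0.913 to 1.08, 1.04 to 1.27 and 0.984 to 1.23. Of 6 T cell markers, 5 were higher and 3 then lower, with sums of 0.853 to 1.12, 1.33 to 1.96 and 0.929 to 1.66. All 7 endothelial markers were lower in isotype mice, and all 7 were higher with the antibody than in isotype mice. Their sums were 0.975 to 1.03 in saline, 0.621 to 0.811 in isotype and 0.842 to 0.958 in anti-RGMb mice. Of 7 lung epithelial markers, 5 were lower in isotype mice and 4 higher with the antibody. Their sums were 0.958 to 1.04, 0.871 to 0.906 and 0.924 to 0.999. Of 5 plasmacytoid dendritic cell markers, 3 were higher and 1 lower in isotype mice, and 2 were lower with the antibody. Of 7 mast cell and basophil markers, 6 were higher in isotype mice and 1 lower with the antibody. Of 7 natural killer cell markers, 1 was higher and 2 lower in isotype mice. Heart muscle markers, which lung samples can carry, were lower in isotype mice for 4 of 5 genes and higher with the antibody for 3. The part of any of these cell types in the receptor differences was not tested.

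The genes most like each member were found by Pearson correlation over all 17 arrays after the mean of each experiment was subtracted, among 19741 other genes. These are descriptions with no test, and differences between groups enter them. Tlr8 was most like Ctsc (r = 0.992), a lysosomal protease, and Tlr13 most like Ptpn22 (0.989), a phosphatase of leukocyte receptor signalling. Tlr1 was most like Sema4a (0.985), and Tlr7 like Ifi207 (0.971) and Pld4 (0.965), an endosomal nuclease. Tlr9 was most like Gdf3 (0.978) and Irf8 (0.965), a transcription factor of dendritic cells and monocytes. Tlr4 was most like Kif4 (0.963), a motor of dividing cells, and Tlr6 most like Trim59 (0.959). Tlr3 was most like the zinc finger genes Zfp759 (0.962) and Zfp623 (0.938). For Tlr2 (Ap4m1, 0.913) and Myd88 (Mvb12a, 0.904) the highest correlations were the lowest of the 10 members.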

How the data were processed

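The authors deposited probe set intensity on a linear scale (a scale read here from the values), computed with RMA, which corrects background, normalizes and summarises the probes, per the submitters' processing notes. No version of RMA is stated there. Here the log2 was taken, with no constant added. Of 24679 probe sets, 1275 with several gene symbols and 2050 with none were left out. For 893 genes with several of the other 21354 probe sets that with the highest mean over all arrays was used, which gave 19751 genes.

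For each gene limma 3.58.1 (R 4.3.3) fitted group means plus an experiment effect (eBayes, prior degrees of freedom 4.32). Tests were 2-sided, adjusted by Benjamini-Hochberg over all genes. Another fit, with separate group means in each experiment, gave differences within experiments. The fit was tested on simulated data. Members and lists were chosen with earlier results of these data known. Besides the members, the text names up to 4 genes per pathway list with the smallest p in a comparison. It also names 1 or 2 of the 3 genes most like each member, and Tlr12, Cd36 and Il12a, chosen after their values were seen. The number of arrays limits precision. Of 89 pathway genes, 9 were not analysed here (Tlr5, Tlr11, Irak4, Traf3, Chuk, Ripk1, Nfkb1, Il1r1 and Il1rl1).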

Additional observations from a re-analysis of the deposited data

Results flagged for a closer look

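Among the 30 sets of mice checked (10 members in 3 groups, each mouse relative to the saline mean of its experiment), 2 held a mouse far from the rest, where chance gives about 1 in 20. Both are anti-RGMb mouse 1. Its Tlr2 level was 0.77 log2 units above saline, with the next mouse at 0.25. Its Tlr9 level was 1.14 above saline, with the next at 0.58. The summed plasmacytoid dendritic cell markers of this mouse were 1.87 times the saline mean. Its T cell (1.66), conventional dendritic cell (1.69) and alveolar macrophage (1.23) sums were also the highest of its group. Its eosinophil (1.71), neutrophil (0.927), mast cell and basophil (1.03) and endothelial (0.842) sums were the lowest. The part of any of these cells in these levels was not tested.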

How the results depend on the processing

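Centring the arrays on their median, quantile normalization within experiments, leaving out the dimmest 40% of genes, the mean of all probe sets of a gene, and trended and robust eBayes each kept all 30 member differences on the same side of 0 and of the threshold. Fitting only the 2 groups compared kept 29 of 30, with Tlr9 lost for anti-RGMb minus isotype (-0.48, limma adjusted p = 0.102), and called 2009 genes in anti-RGMb minus saline against 1284. The cause was not tested.

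Without a term for the experiment, 0 members were higher and 0 lower in isotype mice, 0 were lower with the antibody and 0 higher than in saline mice (35, 0 and 10 of all genes were called), and 3 differences changed sign: Myd88 for isotype minus saline (-0.032), and Tlr2 (0.088) and Myd88 (0.13) for anti-RGMb minus isotype. The array level then enters the spread. In experiment 1, taken from the model with separate group means in each experiment, 0 members were lower in isotype mice and 0 lower with the antibody, and signs changed for Tlr2 (0.018) and Myd88 (0.024) against isotype and Tlr3 (0.037) against saline. It called 4025 genes for isotype minus saline against 7034, 1279 for anti-RGMb minus isotype against 4180 and 763 for anti-RGMb minus saline. In experiment 2 of the same model 1 member was higher than in saline mice (653 genes). That model takes its spread from all 17 mice, and each difference from the mice of 1 experiment. The cause of these changes was not tested.

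Leaving out 1 mouse at a time gave 7 to 8 members higher and 1 lower in isotype mice, 5 to 7 lower and 0 to 1 higher with the antibody, and 3 to 5 higher than in saline mice. Over all genes these fits called 6458 to 7358, 3581 to 4466 and 913 to 1540. Tlr2 for anti-RGMb minus isotype ranged from -0.16 to 0.028 and changed sign without isotype mouse 2 (0.0077) or anti-RGMb mouse 2 (0.028).

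Residuals of same-numbered mice of different groups within an experiment correlated at -0.60 to 0.30, over 0.1 in 3 of 16 pairs. With only 2 or 3 mice per group in an experiment, this check cannot decide whether the numbers pair mice. With the number as a replicate block, 7 members were higher and 1 lower in isotype mice, 5 lower with the antibody and 4 higher than in saline mice (6196, 3358 and 944 of all genes were called, against 7034, 4180 and 1284). The block lost Tlr9 in both comparisons of anti-RGMb mice (-0.46, adjusted p = 0.0839, and 0.52, adjusted p = 0.0894, in limma).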
